A study of Homo sapiens with 18 samples.

Results

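The genes described here carry out or steer the joining of broken DNA ends, or act with the poly(ADP-ribose) polymerase PARP1. They were chosen by symbol: TP53BP1 and RIF1 of the 53BP1 axis, XRCC5, XRCC6, LIG4 and NHEJ1 of classical end joining, POLQ of alternative end joining, and PARP1, PARP2 and XRCC1 of the PARP1 branch. Of these 10 genes, 9 were taken from an RNA-seq table of 12853 genes, and NHEJ1 was not analysed here. The table holds 18 libraries, 3 for each of 6 human cancer cell lines, which form 3 pairs of a platinum-sensitive and a platinum-resistant line. In the A2780 pair, A2780, labelled as endometrial/ovarian cancer cells, was compared with CP70, a resistant derivative obtained in culture. In the PEA pair, 1 patient with high-grade serous ovarian cancer gave ascites fluid at 2 times, from which the sensitive PEA1 (taken before any platinum) and the resistant PEA2 (taken once the cancer had come back) were grown. The PEO pair also comes from 1 patient with such a cancer who had received platinum, PEO1 dating from when the tumour still responded and PEO4 from when it no longer did. All lines were cultured in RPMI-1640 with fetal bovine serum and carried no treatment in the labels, and each resistant state is represented by 1 line.

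Broken DNA ends are joined by several routes. In classical end joining the Ku ring, made of the products of XRCC5 (Ku80) and XRCC6 (Ku70), threads onto the end and recruits the kinase encoded by PRKDC, and DNA ligase IV (LIG4) seals the break together with XRCC4. 53BP1 (TP53BP1) binds chromatin beside the break and, through RIF1 and the shieldin complex, holds back the trimming of the end that homologous recombination needs. DNA polymerase theta (POLQ) joins ends through short matching sequences. PARP1 and PARP2 sense breaks, mark proteins with chains of ADP-ribose and are the targets of PARP inhibitors used in ovarian cancer, while XRCC1 is the scaffold that brings repair enzymes to those chains.

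A library held between 1344098 and 7067336 reads on genes of the table, and the 9 genes held between 20 and 4859 reads in any library, so that LIG4, with 20 to 104 reads, rests on the fewest counts. Values are log2 CPM as deposited (CPM, read counts scaled to a common library size, with 0.5 reads added to each count), and the log2FC of a pair is the mean of the resistant line minus that of the sensitive line, with its SE from limma over all 18 libraries. A gene was called at an FDR below 0.05 (Benjamini-Hochberg over all genes). The labels do not say whether the 3 replicates of a line are separate cultures, so p-values measure the spread between these libraries, which may be technical. Fewer cells of a type and less RNA per cell cannot be told apart in such bulk RNA. Of 7 epithelial and Mullerian markers, 6 held at most 3 reads in every A2780 library, 3 did in CP70 (KRT7, PAX8 and WT1) and 1 did in PEA1 (KRT7). The sum of the 7 reached 2.84 CPM at most in A2780, against 90.3 to 96.0 CPM in CP70, 427 to 586 CPM in PEA1, 2841 to 3165 CPM in PEA2, 6257 to 7268 CPM in PEO1 and 4401 to 5987 CPM in PEO4. The label of A2780 as an ovarian line thus had little support from these 7 markers, which alone do not settle the origin of the line. Of 3 markers of leukocytes and fibroblasts, PTPRC was at 20.1 to 25.1 CPM in PEA2 and at most 2 reads elsewhere, and DCN and LUM together gave most of the 33.9 to 36.5 CPM of CP70. The part of these differences between lines in the results was not tested.

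In the A2780 pair, 4 of the 9 genes fell and none rose (TP53BP1, XRCC5, LIG4 and PARP1). XRCC6, LIG4 and POLQ rose and TP53BP1, RIF1 and XRCC1 fell in the PEA pair. In the PEO pair, RIF1 rose and XRCC6, PARP2 and POLQ fell. Over all genes, 39.9% were called in the A2780 pair (22.2% higher and 17.7% lower in the resistant line), 61.9% in the PEA pair (32.5% higher and 29.4% lower) and 41.5% in the PEO pair (19.6% higher and 21.9% lower), so counts of 4, 6 and 4 of 9 lie near the background. Scaling moved the PEA count, in which 5 in place of 3 genes were lower with quantile normalization or plain library sizes. The median log2FC of the 9 genes was -0.13, -0.17 and 0.04 in the A2780, PEA and PEO pairs, beside -0.02, 0.01 and -0.02 over all genes. It was -0.34 in the PEA pair with quantile normalization and -0.42 with plain library sizes, which moved the median of all genes to -0.10 and -0.24, and -0.035 in the A2780 pair with quantile normalization.

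Most changes were smaller than 1 on the log2 scale. With |log2FC| above 1 as a further condition, TP53BP1 and LIG4 remained in the A2780 pair, where 19.2% of all genes passed, XRCC6 and XRCC1 in the PEA pair, where 33.6% passed, and none of the 9 in the PEO pair, where 18.8% passed. None of the 9 was called in all 3 pairs, as 12.7% of all genes were. The changes of 8 of the 9 genes differed between pairs (moderated F test, 75.3% of all genes), PARP2 being the exception at an FDR of 0.0720, and all 9 differed in level among the 6 lines, as 97.5% of all genes did.

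**Figure D1:**
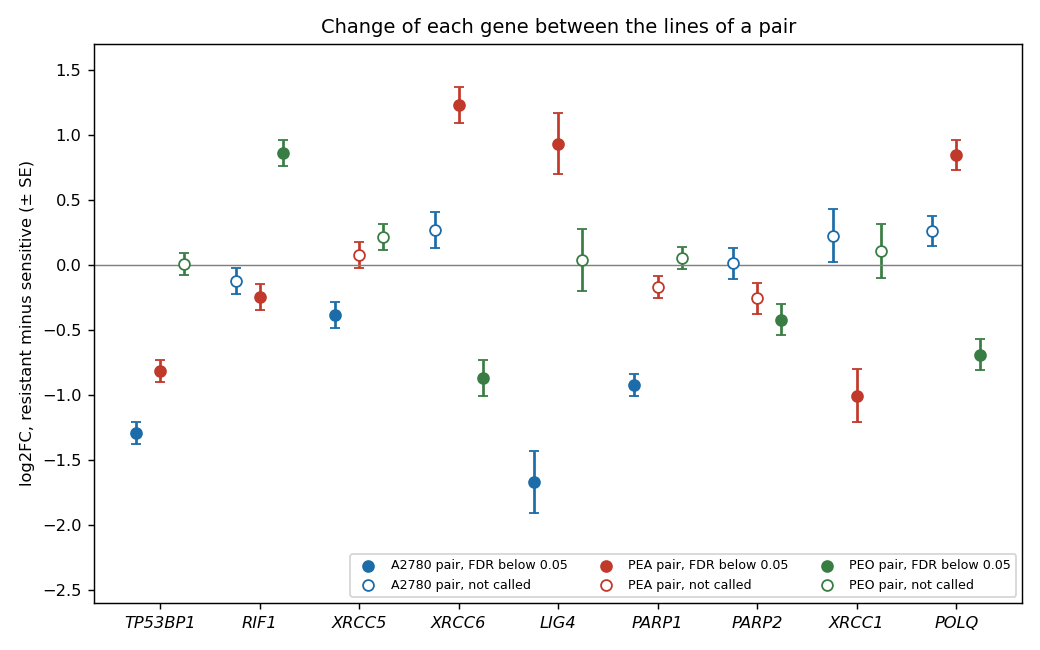
Change of each of the 9 genes in each pair. The vertical axis is log2FC (resistant minus sensitive) with its SE, blue is the A2780 pair, red the PEA pair and green the PEO pair, and filled points have an FDR below 0.05. XRCC6 and POLQ lie above 0 in the PEA pair and below 0 in the PEO pair, and TP53BP1 lies below 0 in the A2780 and PEA pairs and at 0.01 in the PEO pair.

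Promoter sequences are given for the genes on which the comparisons turn, TP53BP1 and PARP1, which a linear model over all pairs called, XRCC6 and POLQ, which rose together in the PEA pair and fell together in the PEO pair, and LIG4, which moved with the gene that starts beside it on the opposite strand. Of the 9 genes, 8 were matched by symbol to RefSeq promoters (XRCC5 was not). Each sequence is the 250 bases before the annotated start on the strand of the gene, in GRCh38.p14. Capitals mark matches on either strand to any of 6 motifs, the GC box GGGCGG, the ETS core CCGGAAG, the CCAAT box CCAAT, the E2F core GGCGGGA, the CHR element TTTGAA and the NRF1 core GCGCATGC. The GC box and the E2F core overlap where they share letters. Of 34788 promoters of the same length, 42.6%, 8.50%, 32%, 13.5%, 13.3% and 2.57% held them in that order. A match is a description of the letters and not of a bound site.
TP53BP1, chr15:43510641-43510890, minus strand: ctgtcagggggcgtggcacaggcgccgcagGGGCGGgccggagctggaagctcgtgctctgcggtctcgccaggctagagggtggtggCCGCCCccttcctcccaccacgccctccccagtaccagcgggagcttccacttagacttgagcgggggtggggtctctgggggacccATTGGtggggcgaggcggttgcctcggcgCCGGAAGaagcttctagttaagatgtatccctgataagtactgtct
PARP1, chr1:226408094-226408343, minus strand: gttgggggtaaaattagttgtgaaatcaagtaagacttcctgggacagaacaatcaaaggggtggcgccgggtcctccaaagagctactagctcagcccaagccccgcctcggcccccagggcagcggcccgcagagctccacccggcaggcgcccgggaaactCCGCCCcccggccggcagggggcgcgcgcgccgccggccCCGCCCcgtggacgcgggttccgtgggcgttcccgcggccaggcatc
XRCC6, chr22:41621045-41621294, plus strand: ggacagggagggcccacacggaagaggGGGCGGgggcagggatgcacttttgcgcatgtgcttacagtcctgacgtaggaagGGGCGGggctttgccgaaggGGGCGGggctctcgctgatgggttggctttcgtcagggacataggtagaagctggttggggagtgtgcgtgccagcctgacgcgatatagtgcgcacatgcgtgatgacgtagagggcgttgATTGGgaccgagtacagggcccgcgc
POLQ, chr3:121545989-121546238, minus strand: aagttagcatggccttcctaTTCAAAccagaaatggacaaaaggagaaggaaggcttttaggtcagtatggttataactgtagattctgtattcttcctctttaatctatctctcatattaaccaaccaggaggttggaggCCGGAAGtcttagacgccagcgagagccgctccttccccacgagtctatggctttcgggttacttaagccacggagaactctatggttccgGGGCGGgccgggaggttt
LIG4, chr13:108218350-108218599, minus strand: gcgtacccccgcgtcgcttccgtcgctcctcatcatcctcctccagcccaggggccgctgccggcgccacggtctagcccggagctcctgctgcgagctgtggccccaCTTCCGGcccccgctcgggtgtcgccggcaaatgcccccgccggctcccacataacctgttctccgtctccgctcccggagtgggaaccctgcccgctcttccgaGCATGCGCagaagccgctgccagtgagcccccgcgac
GC content was 66.4% for TP53BP1, 70.4% for PARP1, 63.6% for XRCC6, 48.4% for POLQ and 72.0% for LIG4, beside a median of 58% over all promoters. The XRCC6 window held 3 GC boxes and a CCAAT box, and the POLQ window a GC box, an ETS core and a CHR element, so that the pair of genes shared the GC box alone among these motifs. TP53BP1 held 2 GC boxes, an ETS core and a CCAAT box, and PARP1 held 2 GC boxes. For LIG4 RefSeq listed 5 starts, of which the farthest upstream is shown, with an ETS core and an NRF1 core.

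TP53BP1 (chr15:43695259-43802926, minus strand, GRCh37) was lower in the resistant line of 2 pairs. It measured 7.71, 7.82 and 7.76 log2 CPM in the A2780 libraries and 6.47, 6.51 and 6.44 in those of CP70. In the PEA pair it measured 6.96, 7.15 and 6.93 in PEA1 and 6.14, 6.12 and 6.33 in PEA2. In neither pair did the lines overlap, and CP70 held 40.8% of the A2780 level and PEA2 56.7% of the PEA1 level (log2FC -1.29 ± 0.08, FDR 1.18e-10, and log2FC -0.82 ± 0.08, FDR 6.96e-08). The PEO lines stood at 7.90, 7.78 and 7.86 in PEO1 and 7.79, 7.87 and 7.91 in PEO4 and overlapped (log2FC 0.01 ± 0.08, FDR 0.944). The fall was larger in the A2780 pair than in the PEA pair, by 0.47 ± 0.12, FDR 0.00218, and both falls differed from the PEO pair (PEO minus A2780 1.30 ± 0.12, FDR 2.65e-08, and PEO minus PEA 0.83 ± 0.12, FDR 7.36e-06). Ordered by level, PEO4, PEO1 and A2780 came first and overlapped with their neighbours, followed by PEA1, CP70 and PEA2, each apart from the next. TUBGCP4 on the opposite strand overlaps TP53BP1 and moved otherwise, with log2FC 0.03 (FDR 0.878) in the A2780 pair, 0.43 (FDR 0.00643) in the PEA pair and -0.92 (FDR 6.61e-06) in the PEO pair. The libraries were strand-specific, and the strand setting of the counting is not given in the sources used here.

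RIF1 (chr2:152266397-152364527, plus strand), the effector that 53BP1 recruits, rose in the PEO pair. It measured 7.52, 7.43 and 7.46 log2 CPM in PEO1, the lowest of the 6 lines, and 8.32, 8.38 and 8.30 in PEO4, a 1.82-fold higher level with no overlap (log2FC 0.86 ± 0.10, FDR 7.84e-07). In the PEA pair it measured 8.13, 8.23 and 8.11 in PEA1 and 7.79, 8.14 and 7.81 in PEA2, which overlapped (log2FC -0.25 ± 0.10, FDR 0.0392). That call did not hold in 8 of 14 alternative fits, with FDR between 0.0509 and 0.157 in those 8. The A2780 pair overlapped too (log2FC -0.13 ± 0.10, FDR 0.339). The change in the PEO pair differed from those of the A2780 pair (0.99 ± 0.14, FDR 8.65e-06) and the PEA pair (1.11 ± 0.14, FDR 1.45e-06). RIF1 overlaps NEB on the opposite strand in the annotation. From CPM per kb of annotated exon, the ratio of TP53BP1 to RIF1, computed after the single values were seen, was 0.945 ± 0.0773 (SD, n = 3) in A2780 and 0.421 ± 0.0327 in CP70, 0.634 ± 0.0259 in PEA1 and 0.430 ± 0.0796 in PEA2, and 1.82 ± 0.0345 in PEO1 and 1.01 ± 0.0561 in PEO4. The libraries of the resistant line lay below those of the sensitive line in every pair, with a lower TP53BP1 level in the A2780 and PEA pairs and a higher RIF1 level in the PEO pair.

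**Figure D2:**
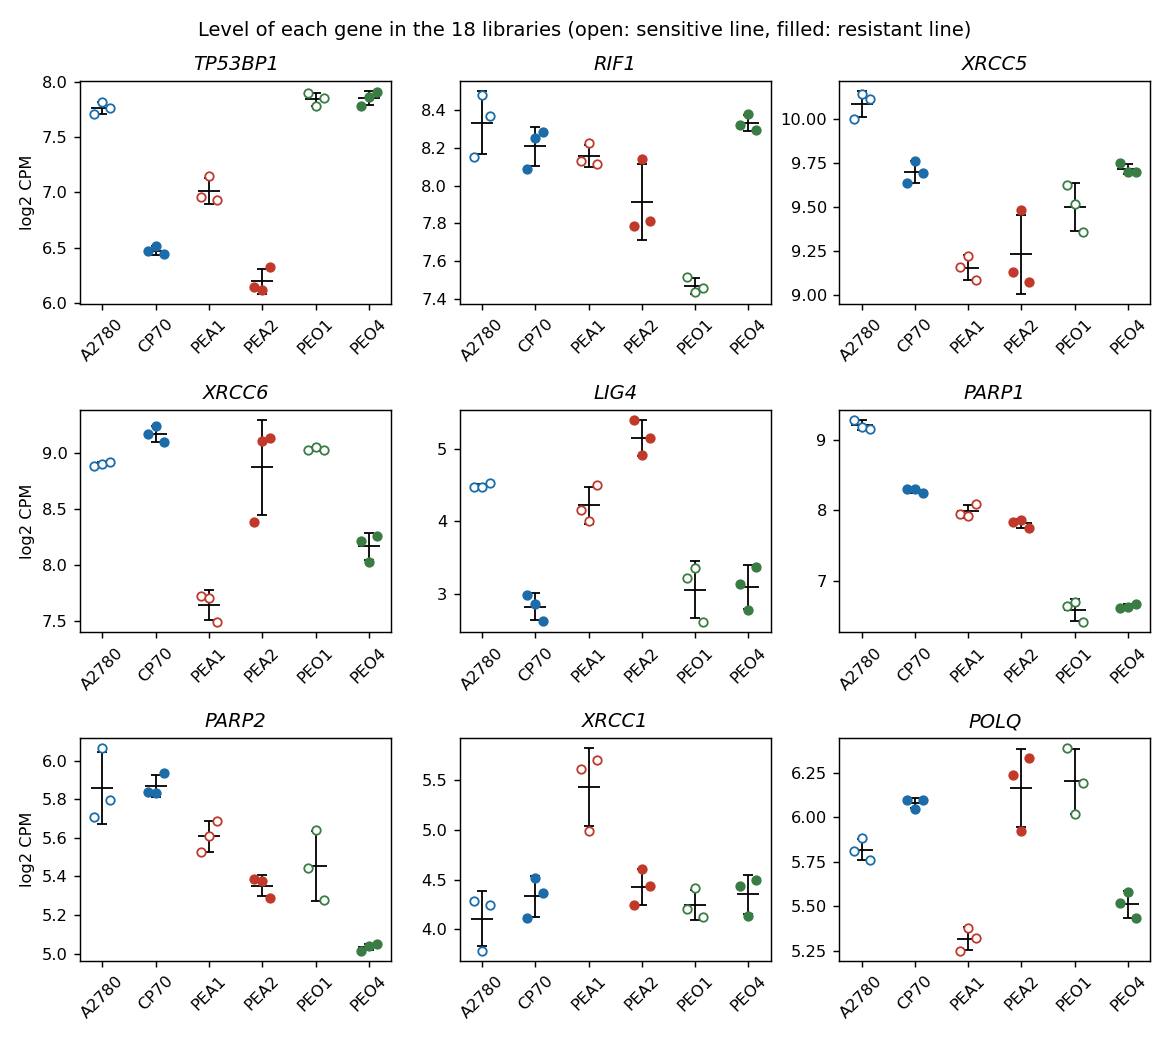
Levels of the 9 genes in the 18 libraries. Each panel gives log2 CPM on a scale of its own for 1 gene, with open points for sensitive and filled points for resistant lines, and bars for mean ± SD of the 3 libraries. PARP1 steps down from A2780 to the PEO lines, and XRCC6 in PEA2 spreads from 8.38 to 9.13.

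Of the pair of Ku subunits, XRCC6 changed in opposite directions in the PEA and PEO pairs and XRCC5 was called in the A2780 pair. XRCC6 (chr22:42017167-42060052, plus strand) measured 7.73, 7.71 and 7.49 log2 CPM in PEA1 and 8.38, 9.11 and 9.13 in PEA2. PEA2 was 2.35-fold higher on average and did not overlap with PEA1, although replicate 1 of PEA2 lay well below its other 2 libraries (log2FC 1.23 ± 0.14, FDR 2.12e-07), and without that library the log2FC was 1.48 (FDR 1.22e-10). The order was turned around in the PEO pair, with 9.03, 9.06 and 9.03 in PEO1 and 8.22, 8.03 and 8.26 in PEO4, which held 54.7% of the PEO1 level (log2FC -0.87 ± 0.14, FDR 3.67e-05). The changes of these pairs differed by -2.10 ± 0.20, FDR 2.17e-08. In the A2780 pair every CP70 library lay above the A2780 libraries, yet the difference was not called (log2FC 0.27 ± 0.14, FDR 0.133).

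XRCC5 (chr2:216972187-217071026, plus strand) fell in the A2780 pair, from 10.00, 10.14 and 10.11 in A2780 to 9.64, 9.76 and 9.70 in CP70 (log2FC -0.39 ± 0.10, FDR 0.00417). In the PEA and PEO pairs it was not called (log2FC 0.07 ± 0.10, FDR 0.535, and log2FC 0.21 ± 0.10, FDR 0.0956). Per kb of annotated exon the Ku genes had the highest values of the 9. Line means ran from 105 to 199 CPM per kb for XRCC5 and from 61.6 to 178 for XRCC6, while no other member exceeded 32.2. The length joins all annotated exons of a gene and was 18399 bases for PARP1 but 3244 for XRCC6. Ranks of different genes and the size of their ratios on this scale depend on these lengths, while comparisons between lines do not. The ratio of XRCC6 to XRCC5 on that scale, whose products work as a heterodimer, was 0.742 ± 0.0302 in A2780 and 1.17 ± 0.0524 in CP70, 0.589 ± 0.0327 in PEA1 and 1.35 ± 0.379 in PEA2, and 1.23 ± 0.112 in PEO1 and 0.577 ± 0.0457 in PEO4. It was higher in every library of the resistant line in the A2780 and PEA pairs and lower in every library of the resistant line in the PEO pair. This ratio and that of PARP1 to PARP2 were chosen after the single values were seen, and 3 libraries against 3 allow no exact permutation p below 0.10.

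**Figure D3:**
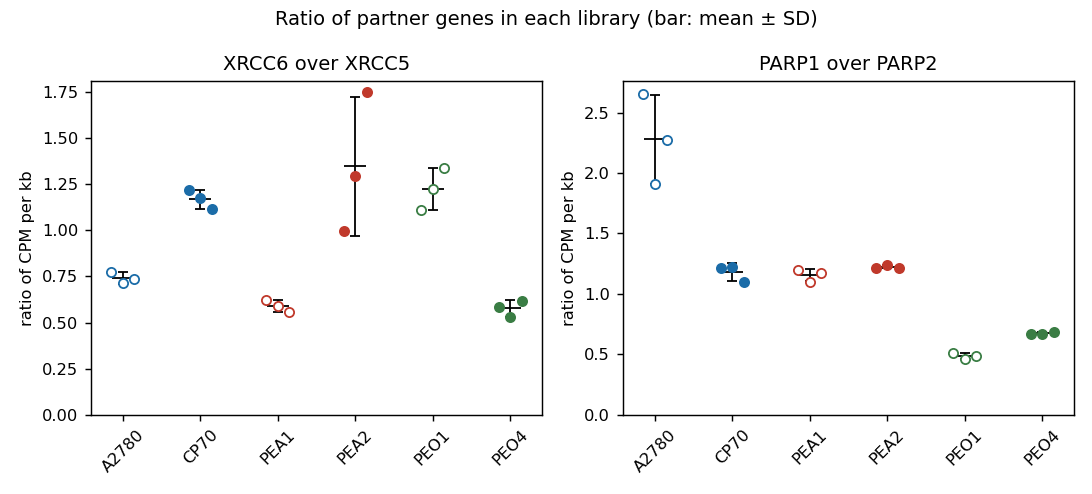
Ratios of XRCC6 to XRCC5 and of PARP1 to PARP2 in each library, from CPM per kb of annotated exon. Points are libraries (open sensitive, filled resistant) and bars are mean ± SD of 3. The mean XRCC6 ratio is below 1 in A2780, PEA1 and PEO4, and replicate 1 of PEA2 lies at 0.998. The mean PARP1 ratio runs from 2.28 ± 0.370 in A2780 to 0.485 ± 0.0237 in PEO1. A ratio of 1 does not stand for equal levels, since it depends on the exon lengths used.

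LIG4 (chr13:108859787-108870716, minus strand), the ligase of classical end joining, moved in opposite directions in 2 pairs. Its level per kb of annotated exon was the lowest of the 9 in every line, between 0.983 CPM per kb in CP70 and 5.02 in PEA2, a rank that depends on the exon lengths used. Its reads were 79, 86 and 51 in the A2780 libraries and 48, 30 and 23 in those of CP70, which corresponds to 4.48, 4.48 and 4.52 and 2.99, 2.85 and 2.63 log2 CPM. CP70 held 31.4% of the A2780 level (log2FC -1.67 ± 0.24, FDR 8.42e-06). In the PEA pair the level rose from 4.15, 4.0 and 4.51 to 5.41, 4.91 and 5.15 (log2FC 0.93 ± 0.24, FDR 0.00199), with 24, 22 and 39 reads in PEA1 and 79, 104 and 77 in PEA2. The lines did not overlap in either pair, and the changes differed by 2.60 ± 0.33, FDR 1.67e-06. The PEO lines overlapped at 3.06 ± 0.39 and 3.10 ± 0.30 log2 CPM (SD, n = 3; log2FC 0.04 ± 0.24, FDR 0.921).

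The partners of classical end joining (PRKDC, DCLRE1C, XRCC4, PAXX, POLL, POLM and CYREN) were counted as a list. Of these 7 genes, none rose and 1 fell in the A2780 pair, 3 rose and 2 fell in the PEA pair and 2 rose and 2 fell in the PEO pair, with median log2FC of -0.32, 0.41 and 0.25. Over the alternatives the median ran from 0.17 to 0.49 in the PEA pair, where 2 rose and 2 fell with plain library sizes, and from 0.046 to 0.39 in the PEO pair. PRKDC, the catalytic subunit of DNA-dependent protein kinase, fell in the PEA pair (log2FC -0.36 ± 0.10, FDR 0.00544) and the PEO pair (log2FC -0.55 ± 0.10, FDR 0.000224) and was at log2FC -0.17 in the A2780 pair (FDR 0.211). XRCC4, the partner of LIG4, rose in the PEA pair (log2FC 2.46 ± 0.34, FDR 2.84e-06), where its reads were 6, 12 and 4 in PEA1 and 50, 101 and 50 in PEA2. It also passed in the PEO pair (log2FC 0.85 ± 0.34, FDR 0.0488), a call lost in 5 of 14 alternative fits (FDR 0.0593 to 0.179). POLM, a gap-filling polymerase of end joining, fell in the A2780 pair (log2FC -1.03 ± 0.27, FDR 0.00441) and rose in the PEA pair (log2FC 1.78 ± 0.27, FDR 1.03e-05) and the PEO pair (log2FC 1.44 ± 0.27, FDR 0.000218). Its reads were 4, 6 and 12 in PEA1 and 24, 64 and 39 in PEA2.

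POLQ (chr3:121150278-121264835, minus strand) followed the directions of XRCC6. It measured 5.25, 5.38 and 5.32 log2 CPM in PEA1 and 6.24, 5.92 and 6.33 in PEA2, a 1.80-fold rise (log2FC 0.85 ± 0.12, FDR 3.54e-06). In the PEO pair it fell from 6.39, 6.02 and 6.19 in PEO1 to 5.52, 5.58 and 5.43 in PEO4 (log2FC -0.69 ± 0.12, FDR 8.29e-05), and neither pair overlapped. The changes of these pairs differed by -1.54 ± 0.17, FDR 1.77e-07. In the A2780 pair the levels were 5.81, 5.88 and 5.76 and 6.10, 6.04 and 6.10, with no call (log2FC 0.26 ± 0.12, FDR 0.0859). PEO1, PEA2 and CP70 headed the order of lines and overlapped with their neighbours, and A2780, PEO4 and PEA1 followed, each apart from the next. The pseudogene RPL7AP11 overlaps POLQ on the opposite strand with 3 to 78 reads in these libraries. It rose in the PEA pair like POLQ (log2FC 2.36, FDR 0.0103), although its libraries of the 2 lines overlapped. RPL7AP11 was not called in the A2780 pair (log2FC -0.54, FDR 0.598) or the PEO pair (log2FC -0.28, FDR 0.801). As for TP53BP1, the strand setting of the counting is not given.

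Proliferation genes were set beside POLQ, whose expression is known to be higher in dividing cells. In the PEO pair, where POLQ fell, 5 of 10 proliferation markers fell and none rose (median log2FC -0.25), and the 10 summed to between 2335 and 2515 CPM in PEO1 and between 1911 and 2177 CPM in PEO4. PCNA, the sliding clamp of replication, fell there (log2FC -1.63 ± 0.09, FDR 3.11e-11), and MKI67 was at log2FC -0.23 (FDR 0.124). In the PEA pair, where POLQ rose, 4 of the 10 rose and 5 fell (median log2FC -0.31, between -0.55 and -0.18 over the alternatives), with sums of 2927 to 2981 CPM in PEA1 and 2841 to 2844 CPM in PEA2. There PCNA fell (log2FC -0.38 ± 0.09, FDR 0.000970), and MKI67 passed at log2FC 0.28 (FDR 0.0467) but was at -0.088 with quantile normalization and not called. The MKI67 call was also lost in 7 other fits, plain library sizes among them (log2FC 0.034 to 0.31, FDR 0.0578 to 0.829). In the A2780 pair, 1 of the 10 rose, MKI67 (log2FC 0.62 ± 0.12, FDR 0.000234), and 2 fell, one of them PCNA (log2FC -0.52 ± 0.09, FDR 9.06e-05), with sums of 2867 to 3103 CPM in A2780 and 2819 to 2865 CPM in CP70. The part of proliferation in the changes of POLQ was not tested.

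Partners of alternative end joining (RBBP8, MRE11, FEN1, LIG1, APEX2 and RHNO1) were counted next. Of the 6, 1 rose and 2 fell in the A2780 pair, 2 rose and 1 fell in the PEA pair and none rose and 2 fell in the PEO pair, with median log2FC of -0.25, 0.05 and -0.19. The median in the PEA pair was -0.06 with quantile normalization and -0.20 with plain library sizes. RBBP8, which starts the trimming of ends, rose in the A2780 pair (log2FC 0.75 ± 0.13, FDR 7.36e-05) and the PEA pair (log2FC 0.87 ± 0.13, FDR 6.91e-06). It was lower in the PEO pair at the edge of the threshold (log2FC -0.35 ± 0.13, FDR 0.0348), with the call lost in 7 of 14 alternative fits (FDR 0.0644 to 0.101). LIG1, a replicative ligase, fell in the A2780 pair (log2FC -0.68 ± 0.20, FDR 0.00981) and the PEA pair (log2FC -0.67 ± 0.20, FDR 0.00663), the latter call being lost in 3 of 14 alternative fits (FDR 0.0558 to 0.0604). APEX2, a nuclease acting on modified ends, rose in the PEA pair (log2FC 1.20 ± 0.18, FDR 1.15e-05), and RHNO1, which binds polymerase theta in the checkpoint response, fell in the PEO pair (log2FC -0.72 ± 0.13, FDR 0.000192).

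PARP1 (chr1:226547911-226595855, minus strand) fell in the A2780 pair, from 9.29, 9.18 and 9.16 log2 CPM in A2780 to 8.30, 8.30 and 8.25 in CP70, which held 52.7% of the A2780 level (log2FC -0.92 ± 0.08, FDR 1.73e-08). It was not called in the PEA pair (log2FC -0.17 ± 0.08, FDR 0.0838) or the PEO pair (log2FC 0.06 ± 0.08, FDR 0.632). The change in the A2780 pair differed from that in the PEA pair (0.75 ± 0.12, FDR 1.92e-05) and in the PEO pair (0.98 ± 0.12, FDR 1.07e-06). The lines ran from 9.21 ± 0.07 log2 CPM (SD, n = 3) in A2780 through 8.28 ± 0.03 in CP70, 7.99 ± 0.09 in PEA1 and 7.82 ± 0.06 in PEA2 to 6.64 ± 0.03 in PEO4 and 6.59 ± 0.15 in PEO1, and among neighbours in this order the PEO lines alone overlapped. The decrease of PARP1 in the PEA pair passed the threshold with 2 other scalings, at log2FC -0.42 with plain library sizes and -0.34 with quantile normalization.

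PARP2 (chr14:20811774-20826063, plus strand), the relative that shares the role of PARP1 at breaks, was the member for which the F test between pairs did not pass. It fell in the PEO pair, from 5.45, 5.64 and 5.28 to 5.02, 5.04 and 5.05 (log2FC -0.42 ± 0.12, FDR 0.00765), a call lost without replicate 2 of PEO1 (log2FC -0.33, FDR 0.0552). It was at log2FC 0.01 ± 0.12 in the A2780 pair (FDR 0.951) and -0.26 ± 0.12 in the PEA pair (FDR 0.0704), where plain library sizes (-0.50) and quantile normalization (-0.36) moved it past the threshold. Per kb of annotated exon the ratio of PARP1 to PARP2 was 2.28 ± 0.370 in A2780 and 1.18 ± 0.0709 in CP70, 1.16 ± 0.0494 in PEA1 and 1.22 ± 0.0141 in PEA2, and 0.485 ± 0.0237 in PEO1 and 0.676 ± 0.00957 in PEO4. The size of this ratio depends on the exon lengths used (18399 bases for PARP1 and 4062 for PARP2), while the order of the lines does not. RPPH1, the RNA of RNase P, starts beside PARP2 on the opposite strand and overlaps it with 3936 to 19049 reads, against 63 to 349 for PARP2, so reads assigned to PARP2 are uncertain if the counting did not use strand. RPPH1 was higher in the PEO pair (log2FC 0.60, FDR 0.0356), where PARP2 fell, and was not called in the A2780 pair (FDR 0.721) or the PEA pair (FDR 0.669).

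XRCC1 (chr19:44047463-44084625, minus strand) fell in the PEA pair. It measured 5.62, 4.99 and 5.70 log2 CPM in PEA1 and 4.24, 4.60 and 4.44 in PEA2, which held 49.8% of the PEA1 level with no overlap (log2FC -1.01 ± 0.21, FDR 0.000299). The 5 lines other than PEA1 lay between 4.11 ± 0.28 in A2780 and 4.43 ± 0.18 in PEA2 (SD, n = 3), and each overlapped with its neighbour in that order. The A2780 and PEO pairs were not called (log2FC 0.23 ± 0.21, FDR 0.410, and log2FC 0.11 ± 0.21, FDR 0.719). XRCC1 held 35 to 115 reads per library, and PINLYP on the opposite strand and a further annotated gene on the same strand overlap it.

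Of the enzymes that act with XRCC1 at breaks, LIG3, APTX, APLF, POLB and TDP1 were counted beside it. None of these 5 was called in the A2780 pair by limma on the deposited values or with voom weights, with 1 at an unadjusted p below 0.05, and 1 rose with plain library sizes. In the PEA pair 3 rose and none fell, and in the PEO pair none rose and 2 fell, with median log2FC of -0.13, 0.65 and -0.36 in the 3 pairs. The medians of the A2780 and PEO pairs are the values of APLF, which was not called there (FDR 0.809 and 0.477). APLF held 1 to 7 reads in the A2780 pair. Over the alternatives the median ran from -0.20 to 0.28 in the A2780 pair, changing sign, and was 0.40 in the PEA pair with plain library sizes, where 2 rose. POLB, the gap-filling polymerase of base excision repair, rose in the PEA pair (log2FC 0.98 ± 0.22, FDR 0.000665) and fell in the PEO pair (log2FC -0.66 ± 0.22, FDR 0.0203). LIG3, the ligase bound to XRCC1, rose in the PEA pair (log2FC 0.65 ± 0.15, FDR 0.000967), and TDP1, which frees trapped topoisomerase I from ends, rose in the PEA pair (log2FC 0.48 ± 0.14, FDR 0.00521) and fell in the PEO pair (log2FC -0.42 ± 0.14, FDR 0.0203). The PEA call of TDP1 was lost with plain library sizes (log2FC 0.24, FDR 0.156). The PEO calls were lost in 4 of 14 alternative fits for POLB (FDR 0.0526 to 0.0998) and in 2 for TDP1 (FDR 0.0701 and 0.102).

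Among genes of the ADP-ribose cycle and of the response to trapped PARP1 (PARP3, HPF1, PARG, ADPRS, CHD1L and SLFN11), 1 rose and 1 fell in the A2780 pair, 2 rose and 3 fell in the PEA pair and 1 rose and 1 fell in the PEO pair, with median log2FC of 0.07, -0.55 and 0.18, the first of which includes the fitted value of SLFN11 at 0 to 1 reads. Over the alternatives the PEA median ran from -0.88 to -0.32. SLFN11, which blocks stressed replication forks and is known to sensitize cells to platinum and PARP inhibitors, held 62, 66 and 51 reads in PEA1 and 15, 19 and 16 in PEA2. It fell there (log2FC -2.50 ± 0.46, FDR 0.000103) and in the PEO pair, where reads went from 166, 139 and 370 in PEO1 to 31, 35 and 31 in PEO4 (log2FC -2.17 ± 0.46, FDR 0.000772). In A2780 and CP70 it held at most 1 read in any library, so no fold is given, and 3 reads correspond to between 0.491 and 1.34 CPM there. PARP3, a relative of PARP1 in end joining, rose in the A2780 pair (log2FC 1.37 ± 0.27, FDR 0.000388) and the PEA pair (log2FC 1.30 ± 0.27, FDR 0.000359). Its reads were few, with 14, 16 and 5 in A2780, 52, 42 and 32 in CP70, 10, 8 and 19 in PEA1 and 38, 63 and 45 in PEA2. Over the alternatives its log2FC in the A2780 pair ran from 0.76 to 1.52, with FDR up to 0.0379. CHD1L, a chromatin remodeller driven by ADP-ribose, fell in the A2780 pair (log2FC -0.44 ± 0.13, FDR 0.00833) and the PEA pair (log2FC -0.41 ± 0.13, FDR 0.00809), where the call was lost without replicate 2 of PEA1 (log2FC -0.27, FDR 0.0689). ADPRS, listed as ADPRHL2, which removes ADP-ribose from serine, fell in the PEA pair (log2FC -1.19 ± 0.18, FDR 9.22e-06) and rose in the PEO pair (log2FC 1.0 ± 0.18, FDR 0.000135).

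Of the 12 partners of the 53BP1 axis in the table, 3 rose and none fell in the A2780 pair, 6 rose and 2 fell in the PEA pair and 3 rose and 4 fell in the PEO pair, with median log2FC of 0.22, 0.39 and -0.25. With plain library sizes 5 rose and 4 fell in the PEA pair (median 0.15), and with quantile normalization 6 rose and 3 fell (median 0.29). The histone gene H2AX, listed as H2AFX, whose phosphorylated product starts the recruitment of 53BP1, rose in the A2780 pair (log2FC 0.92 ± 0.12, FDR 2.66e-06) and fell in the PEA pair (log2FC -1.65 ± 0.12, FDR 4.13e-10). DYNLL1, which helps 53BP1 to assemble, rose in the A2780 pair (log2FC 0.66 ± 0.09, FDR 6.63e-06). CTC1 and STN1 belong to the CST complex, which fills in trimmed ends downstream of shieldin. CTC1 rose in the PEA pair (log2FC 1.68 ± 0.20, FDR 5.53e-07) and passed in the other direction in the PEO pair (log2FC -0.53 ± 0.20, FDR 0.0424), a call lost in 6 of 14 alternative fits (FDR 0.0527 to 0.151). STN1, listed as OBFC1, rose in the PEA pair (log2FC 0.89 ± 0.22, FDR 0.00143) and the PEO pair (log2FC 1.36 ± 0.22, FDR 3.72e-05). RNF168, the ubiquitin ligase that marks chromatin for 53BP1, rose in the PEA pair (log2FC 1.46 ± 0.13, FDR 4.87e-09) and fell in the PEO pair (log2FC -1.02 ± 0.13, FDR 1.72e-06). SHLD1, SHLD3, TEN1 and DNTT were not analysed here. The others of the 12 are MDC1, RNF8, PAXIP1, NUDT16L1, ASTE1, and MAD2L2 and SHLD2 (listed as FAM35A) of shieldin. These last are named after their values were seen. SHLD2 rose in the PEA pair (log2FC 0.56, FDR 0.000758) and fell in the PEO pair (log2FC -0.48, FDR 0.00472). MAD2L2 rose in the PEA pair (log2FC 0.88, FDR 0.00269). Neither was called in the A2780 pair, nor MAD2L2 in the PEO pair.

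**Figure D4:**
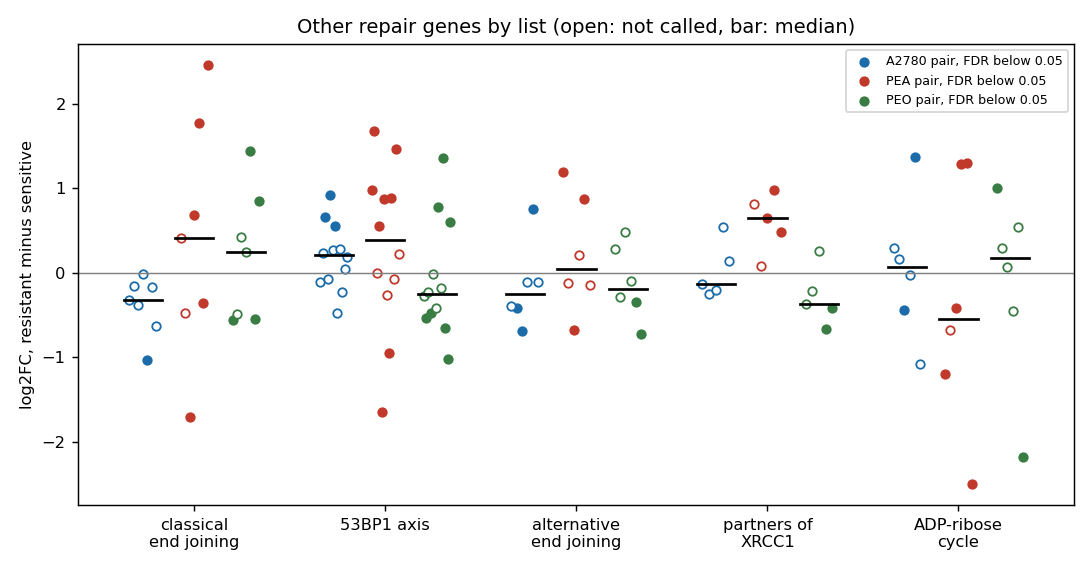
Changes of 36 further repair genes by list. The vertical axis is log2FC (resistant minus sensitive), columns of points are the A2780 (blue), PEA (red) and PEO (green) pairs of each list, filled points have an FDR below 0.05 and black bars are medians. Median values run from -0.55 to 0.65, both in the PEA pair.

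Over the 5 lists, 5 of 36 genes rose and 4 fell in the A2780 pair, 16 rose and 8 fell in the PEA pair and 6 rose and 11 fell in the PEO pair. The calls came to 9, 24 and 17 of 36, beside the 39.9%, 61.9% and 41.5% of all genes given above. Their median log2FC was -0.11, 0.32 and -0.22, and that of the PEA pair was 0.07 with plain library sizes, under which 13 of the 36 rose and 13 fell, the median of all genes in that pair moved to -0.24 and the share of its calls that were higher in PEA2 went from 52.6% to 38.5%. All called changes of the 9 members kept their direction under each scaling.

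Genes within 1 Mb of a member were compared with it, on GRCh37. Not every pair is given for every member. Counts of neighbours are of called genes. Over all genes, 22.2% were called higher and 17.7% lower in the A2780 pair. These shares were 32.5% and 29.4% in the PEA pair and 19.6% and 21.9% in the PEO pair. For XRCC6, 37 neighbours had a median log2FC of 1.02 in the PEA pair, with 29 higher and none lower, and of -0.93 in the PEO pair, with 3 higher and 21 lower. XRCC6 itself stood at 1.23 and -0.87, close to these medians, and in the A2780 pair it was at 0.27 beside a median of -0.01. The neighbours of RIF1 were 6, with a median of 1.27 in the PEO pair, where 5 were higher and none lower and RIF1 rose by 0.86. Their median was 0.48 in the A2780 pair, beside -0.13 for RIF1, and 0.13 in the PEA pair, beside -0.25. The single neighbour of LIG4 within that distance, ABHD13, starts 0.024 kb from LIG4 on the opposite strand and is named here after its values were seen. Its log2FC was -1.07 in the A2780 pair (FDR 0.000778) and 0.89 in the PEA pair (FDR 0.00220), beside -1.67 and 0.93 for LIG4. Of 15 neighbours of PARP1, 10 were lower in the A2780 pair and 3 higher (median -0.62), beside -0.92 for PARP1. In that pair 8 of 12 neighbours of XRCC5 were lower and 2 higher (median -1.17), beside -0.39 for XRCC5. Of 14 neighbours of POLQ, 8 were higher in the PEA pair and 1 lower (median 0.82), beside 0.85 for POLQ. There 9 of 17 neighbours of XRCC1 were lower and 4 higher, beside -1.01 for XRCC1. Their median was -0.67, between -0.92 and -0.27 over the alternatives.

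The same comparison is given next for TP53BP1, and for POLQ and PARP2 in the PEO pair. In the PEO pair, 21 of 27 neighbours of TP53BP1 were lower and 1 higher (median -0.80) while TP53BP1 was at 0.01. In the A2780 pair, where TP53BP1 fell by 1.29 on the log2 scale, the median of its neighbours was -0.17, with 7 lower and 3 higher. For the fall of TP53BP1 by 0.82 in the PEA pair the neighbours depended on the scaling, with a median of -0.25 and 10 lower and 8 higher as deposited, -0.49 and 14 lower and 7 higher with plain library sizes, and -0.38 and 11 lower and 8 higher with quantile normalization. Among these neighbours MAP1A starts nearest to TP53BP1, at 0.23 kb, and is named here after its values were seen. It was lower in all 3 pairs, at log2FC -1.56 (FDR 2.91e-05) in the A2780 pair, -3.76 (FDR 8.70e-11) in the PEA pair and -2.80 (FDR 2.07e-08) in the PEO pair. TP53BP1 thus fell together with MAP1A in the A2780 and PEA pairs but not in the PEO pair. POLQ fell in the PEO pair, where its neighbours had a median of 0.28 with 2 lower and 2 higher. PARP2 fell there too, and 4 of its 16 neighbours were lower and 4 higher (median 0.09). Copy number was not measured in these files, and its part in the shared or separate changes was not tested.

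**Figure D5:**
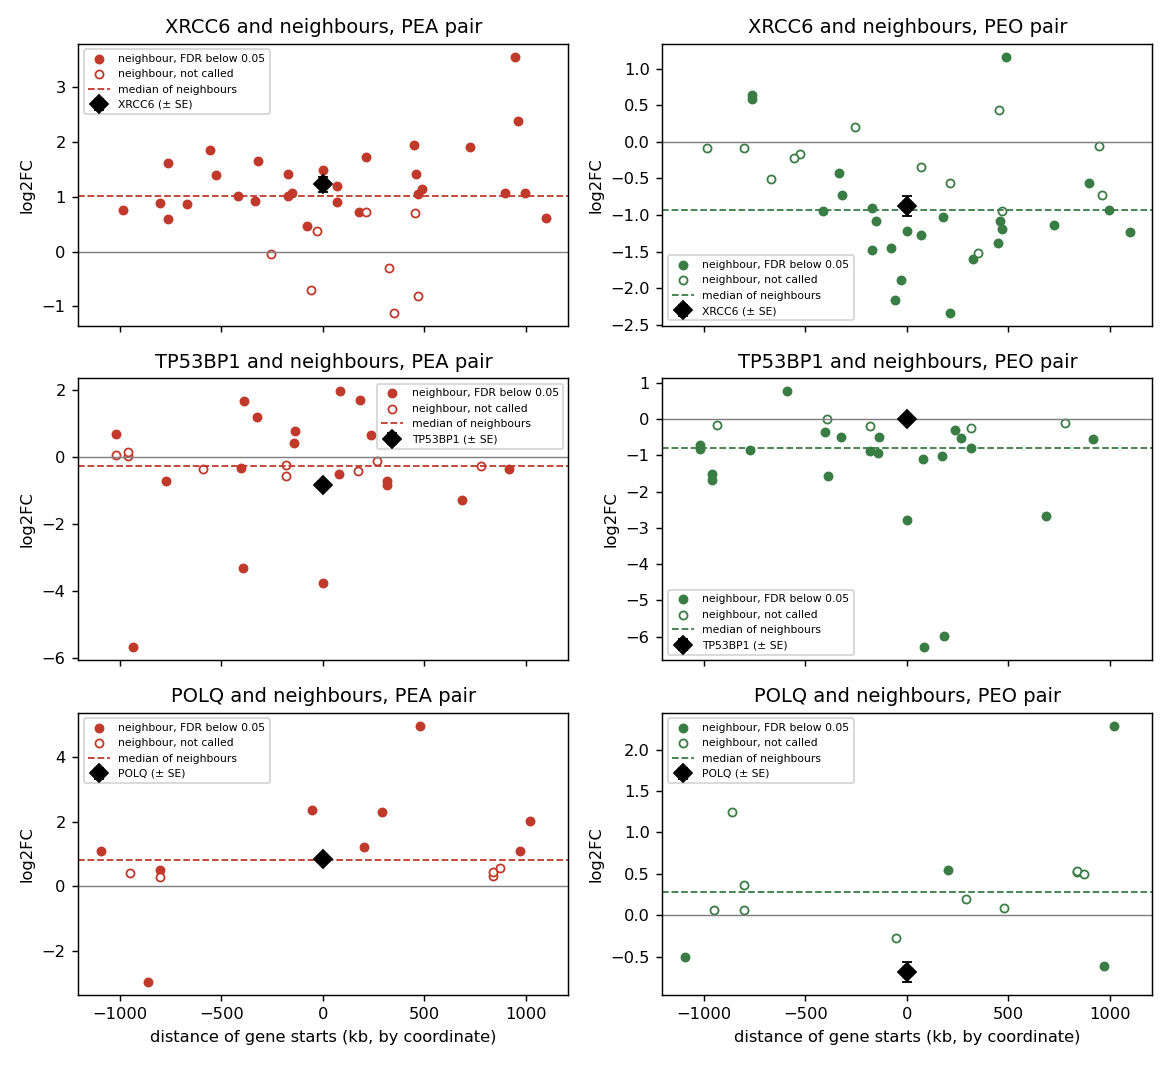
Changes of XRCC6, TP53BP1 and POLQ and of the genes within 1 Mb of each. The horizontal axis is the distance between gene starts in kb, the vertical axis log2FC in the PEA (left) and PEO (right) pair, filled points have an FDR below 0.05, dashed lines are medians of the neighbours and black diamonds the named gene ± SE. XRCC6 lies near the dashed line in both pairs, and TP53BP1 lies above that of -0.80 in the PEO pair.

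A model with terms for resistance and for the pair (a linear model in limma) asked for changes shared by the 3 pairs. It called 2 of the 9 genes, TP53BP1 (log2FC -0.70 ± 0.14, FDR 0.00243) and PARP1 (log2FC -0.35 ± 0.12, FDR 0.0385), beside 24.1% of all genes. TP53BP1 was called under each of 25 alternatives, single libraries left out among them (FDR up to 0.00614). PARP1 was lost with the replicate block (FDR 0.0607), without the trend (FDR 0.0553), and without any 1 library of A2780 or CP70, replicate 3 of PEA1 or replicate 3 of PEA2 (FDR 0.0564 to 0.0717). Neither is a change of every pair, since both were near 0 in the PEO pair. Without the A2780 pair, TP53BP1 was at -0.40 (FDR 0.0502) and PARP1 at -0.06 (FDR 0.624), and PARP2 was called instead (-0.34, FDR 0.0238). The model treats libraries of a line as independent. With the 3 pair differences as the replicates, none of the 9 was called by limma, and none had an unadjusted p below 0.05, the lowest being 0.0805 for TP53BP1.

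The genes most like each member across the 18 libraries were found among 9666 genes with a mean log2 CPM above 3, as a description over libraries that share lines and depth. They were ZNF460 (r = 0.955) and SPRED1 (r = 0.949) for TP53BP1, PPIG (r = 0.903) and ZBTB10 (r = 0.901) for RIF1, XPC (r = 0.957) and LMNB1 (r = 0.949) for XRCC5, TRABD (r = 0.964) and NUP50 (r = 0.936) for XRCC6, and TPT1-AS1 (r = 0.960) and CHD3 (r = 0.932) for LIG4. For the other members they were SKP2 (r = 0.983) and NUP133 (r = 0.980) for PARP1, C4orf46 (r = 0.939) and SBDS (r = 0.938) for PARP2, RNF167 (r = 0.887) and SH2B3 (r = 0.880) for XRCC1, and ZBED4 (r = 0.935) and ATXN10 (r = 0.908) for POLQ. At r above 0.9 there were 155 genes for PARP1, 24 for XRCC5, 4 for POLQ and none for XRCC1. Both genes named for XRCC6 lie on chromosome 22 with it, and both named for POLQ, itself on chromosome 3, also lie on chromosome 22. SPRED1 lies on chromosome 15 with TP53BP1, PPIG on chromosome 2 with RIF1, TPT1-AS1 on chromosome 13 with LIG4 and NUP133 on chromosome 1 with PARP1. Between members, r was highest for XRCC6 and POLQ, at 0.832, and lowest for XRCC6 and XRCC1, at -0.688, over the same 18 libraries.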

How the data were processed

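Total RNA depleted of ribosomal RNA was made into strand-specific libraries from 6 cell lines with 3 replicates each, grouped here by the line named in the labels. Per the study's methods and the submitters' processing notes, the authors aligned reads to hg19 with Bowtie2, counted genes with featureCounts and normalized them with limma. The deposited values are log2 CPM of 12853 genes, and the filter that led to these genes is not given in the sources used here. Every value corresponded to a whole read count (100% within 0.01 reads) once the 0.5 reads that the authors added were removed, which gave 1344098 to 7067336 reads per library on the listed genes. A count of 3 reads is worth 0.452 to 2.18 CPM, and such floors cover counting error only.

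Log2 values were tested with limma 3.58.1 with trend (R 4.3.3) on the 18 libraries jointly, each line having its own mean, and FDR were adjusted over all 12853 genes. Contrasts were resistant minus sensitive in each pair, the differences between pairs, an F test among lines, and a linear model with pair and resistance. On data simulated for the A2780 pair over 12853 genes, 13 of 67 genes with a log2 change of 0.5, 36 of 67 with 1 and 54 of 66 with 2 were recovered, and 5 of 12653 unchanged genes were called. The changed genes were a far smaller share there than the 39.9% called in the real A2780 pair. The FDR cut-off was therefore stricter in the simulation, and these rates do not give the power of the reported calls. Alternatives were each pair fitted alone, a replicate block, quantile normalization, library sizes without scaling, limma without trend, voom weights on the recovered reads, 2 reads added in place of 0.5, genes with a mean log2 value above 0, and leaving out each library. Same-numbered replicates of a pair did not deviate together (correlations from -0.116 to 0.0901), so that replicate numbers were not taken as pairs.

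The members and gene lists were chosen with earlier results of these data known. All 9 members were named. From each repair list, the 2 genes with the largest |log2FC| in each pair were named among those with an FDR below 0.05 and no overlap of lines, with SLFN11, PRKDC, MKI67 and PCNA always named and the other called pairs of a named gene given beside it, together with the 2 genes with the highest Pearson r to each member and genes that overlap a member. Gene spans and exon lengths are from GENCODE on GRCh37 (12642 identifiers matched), and promoters from RefSeq on GRCh38.p14. One gene of the lists is not reported here and was left out of their counts.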

Additional observations from a re-analysis of the deposited data

Results flagged for a closer look

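Changes that differed between pairs are listed with the difference, its SE and its FDR from limma over all genes, of which 75.3% differed in the F test between pairs. For XRCC6, the change in the PEO pair minus that in the PEA pair was -2.10 ± 0.20, FDR 2.17e-08, PEA minus A2780 was 0.96 ± 0.20, FDR 0.000310 and PEO minus A2780 was -1.14 ± 0.20, FDR 7.29e-05. POLQ gave the same signs, with PEO minus PEA at -1.54 ± 0.17, FDR 1.77e-07, PEA minus A2780 at 0.58 ± 0.17, FDR 0.00534 and PEO minus A2780 at -0.95 ± 0.17, FDR 9.05e-05. LIG4 differed by 2.60 ± 0.33, FDR 1.67e-06 for PEA minus A2780, 1.71 ± 0.33, FDR 0.000297 for PEO minus A2780 and -0.90 ± 0.33, FDR 0.0273 for PEO minus PEA.

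For TP53BP1, PEA minus A2780 was 0.47 ± 0.12, FDR 0.00218, PEO minus A2780 was 1.30 ± 0.12, FDR 2.65e-08 and PEO minus PEA was 0.83 ± 0.12, FDR 7.36e-06. For RIF1, PEO minus PEA was 1.11 ± 0.14, FDR 1.45e-06 and PEO minus A2780 was 0.99 ± 0.14, FDR 8.65e-06. For XRCC5, PEA minus A2780 was 0.46 ± 0.14, FDR 0.00919 and PEO minus A2780 was 0.60 ± 0.14, FDR 0.00163.

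For PARP1, PEA minus A2780 was 0.75 ± 0.12, FDR 1.92e-05 and PEO minus A2780 was 0.98 ± 0.12, FDR 1.07e-06. For PARP2, PEO minus A2780 was -0.43 ± 0.17, FDR 0.0408, while its F test over the 3 pairs did not pass. For XRCC1, PEA minus A2780 was -1.23 ± 0.29, FDR 0.00128 and PEO minus PEA was 1.11 ± 0.29, FDR 0.00291.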

How the results depend on the processing

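Of 70 values of single genes, 52 kept their side of the threshold under every alternative, and the called ones among them kept their direction. Some values that stayed uncalled changed sign, such as LIG4 in the PEO pair (-0.19 to 0.20) and XRCC5 in the PEA pair (-0.21 to 0.15). Counts of called members in the A2780, PEA and PEO pairs stayed within 1.5 times the reported 4, 6 and 4 except where a fold bound was added, which gave 2, 2 and 0 at |log2FC| above 1 and 0, 0 and 0 above 2. The linear model called 1 member with the replicate block, 1 without the trend, 1 without the A2780 pair and 0 with the 3 pair differences as replicates, in place of 2, and 3 with plain library sizes, where PARP2 was added (FDR 0.0484). The replicate block gave 4, 6, 4, 8 and 9 members in the pairs, the difference between pairs and the F test among lines, the same counts as without it. Leaving out 1 library at a time gave 4 in the A2780 pair, 5 to 6 in the PEA pair, 3 to 4 in the PEO pair, 8 to 9 between pairs, 9 among lines and 1 to 2 in the linear model. MKI67 reversed in the PEA pair with quantile normalization (-0.088). With the pair fitted alone, POLQ (FDR 0.0378) and XRCC6 (FDR 0.0125) passed in the A2780 pair, and XRCC5 passed in the PEO pair with voom weights (FDR 0.0384). LIG1 in the A2780 pair was lost without replicate 1 of A2780 (FDR 0.0512). The cause of these changes was not tested. Genes with few reads, such as LIG4, XRCC1, XRCC4, POLM, PARP3 and SLFN11, are limited by depth, and each resistant state rests on 1 line.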
